A study of Mus musculus with 12 samples.

Results

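The Do-named tumorspheres were the 3 RNA-seq libraries of the mouse gastric cancer line S1 whose deposited tables carry Do, for double, in their names, and they were compared here with the 3 control libraries, 6 of the 12 libraries of the series. The name and the label of this group disagree: the genotype label and the sample titles call these 3 libraries Rasa1 KO, whereas their tables are named as double. Conversely, the tables named for Rasa1 KO belong to the 3 samples labelled Rasa1 KO, Nf2 KO. The group is called by its table name, Do-named, throughout, and the other group with the conflict is called the labelled double KO. S1 came from a stomach tumour of a mouse with conditional alleles of Cdh1 (F/+), Trp53 (F/F) and Smad4 (F/F), so both groups share these lesions. Both groups also carried Cas9 and a lentiviral single guide RNA: a non-targeting guide in the control, and guides for the genes to be disrupted in the KO cells. The KO cells were antibiotic-selected pools and not single clones. They were grown as tumorspheres, floating clusters seeded from single cells in serum-free medium with epidermal growth factor on low-attachment plates, although the cell type label reads monolayer cell. The study describes the libraries of a group as technical replications, and no label names separate cultures, so the p-values measure the spread between these libraries and not between cultures.

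Nf2 encodes merlin, a membrane-linked scaffold that activates the LATS kinases of the Hippo pathway, which hold the coactivators YAP and TAZ in the cytoplasm. Rasa1 encodes a GTPase-activating protein that speeds the hydrolysis of GTP by Ras and so limits signaling to the kinase ERK. Both are known tumour suppressors, and the study asked what their loss does to gastric cancer cells that grow as spheres.

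The transcripts of both targeted genes were low in the Do-named libraries. On a scale set over all 12 libraries, Nf2 (Gene ID 18016, chr11:4757639-4849544, GRCm38) stood at 59.2, 60.6 and 53.2 CPM (counts per 1000000 counts) in control 1, 2 and 3 and at 11.6, 12 and 12.1 CPM in Do-named 1, 2 and 3. The Do-named level was 20.6% of the control mean, and the groups did not overlap. In the labelled Nf2 KO, Nf2 stood at 14.4, 13.2 and 13.1 CPM, close to the Do-named level, and in the labelled double KO at 64.1, 57.3 and 56.7 CPM, which overlapped the controls. Rasa1 (Gene ID 218397, chr13:85214699-85289486) stood at 61.6, 74.4 and 75.5 CPM in the controls and 34.6, 30.5 and 30.9 CPM in the Do-named libraries, 45.4% of the control mean. The labelled Nf2 KO had 97.7, 101 and 96.2 CPM of Rasa1, above every control, and the labelled double KO had 18.1, 20.5 and 23.4 CPM, the lowest of the series. Thus Nf2 mRNA was low in the libraries labelled Rasa1 KO and at the control level in those labelled for the loss of both genes. These levels went against the genotype labels and are given as a description, without a test, since they were part of how the group was chosen. A guide can also disrupt a protein without lowering its mRNA, so the levels do not fix the genotype.

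**Figure D1:**
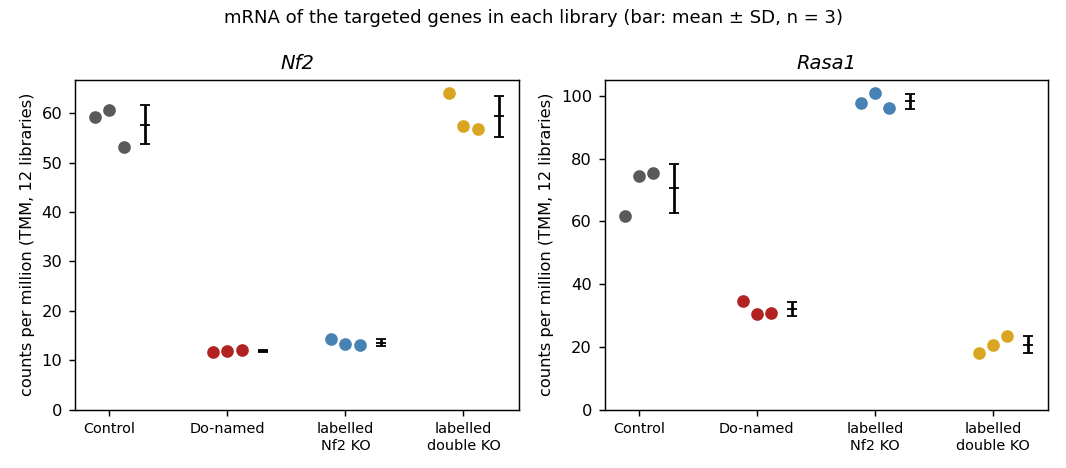
CPM of Nf2 (left) and Rasa1 (right) in each of the 12 libraries, by group, with the mean and SD of 3 libraries beside the points. Both genes are low in the 3 Do-named libraries, whereas Nf2 in the labelled double KO lies at 64.1, 57.3 and 56.7 CPM, among or above the controls.

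The libraries held 43818139 to 95340850 counts in the controls and 81566766 to 85170568 in the Do-named group over 18926 genes. The Do-named libraries lay close together, at distances of 49.1 to 51.1 on the log2 CPM scale, while the controls lay 76.9 to 164 apart, as far as the 132 to 162 that separated the groups. Control 1 (the control titled without a number, controls 2 and 3 being titled with 1 and 2) stood apart from the other controls. Among the markers that were checked, the epithelial keratin transcripts were abundant in every library, with Krt8 at 3225, 2135 and 1488 CPM in control 1, 2 and 3 and 3675, 3421 and 3619.6 CPM in Do-named 1, 2 and 3. Cldn4 was near 0 in every library, at most 0.344 CPM. In the test described below, 2 of the 7 gastric epithelial markers fell, Cdh1 and Epcam, and 0 rose. Over all genes tested 11.9% rose and 13.6% fell. The 3 endothelial markers that were tested summed to 1.05 to 2.18 CPM. Levels also varied with transcript length in a way that differed between libraries. Among protein-coding genes of at least 5 CPM, the median log2 fold change between the groups went from 0.38 in the shortest eighth to -0.37 in the longest. Control 1 deviated from the control mean in the same direction as the Do-named libraries, by 0.52 in the shortest and -0.30 in the longest eighth, whereas control 3 deviated by -0.41 and 0.18. Values after removal of this trend, a fit added after the data had been seen, are therefore given beside the gene lists, as the numbers that rose and that fell.

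**Figure D2:**
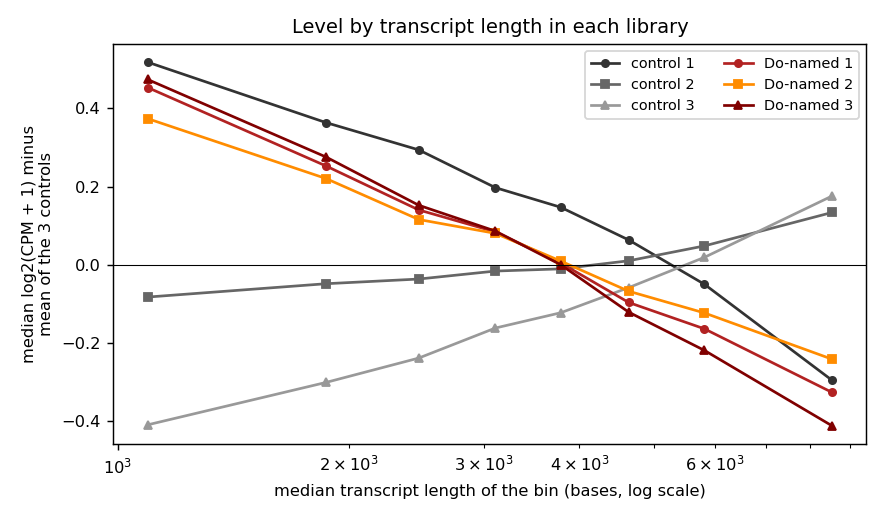
Median of log2(CPM + 1) minus the mean of the 3 controls (y axis) over protein-coding genes in 8 bins of transcript length (x axis, bases, log scale), 1 line for each library. The 3 Do-named libraries and control 1 fall from left to right, control 3 rises from -0.41 to 0.18, and control 2 stays within -0.08 and 0.13.

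Of 17735 genes tested by edgeR's quasi-likelihood test, 4532 (25.6%) had an adjusted p under 0.05 between Do-named and control tumorspheres. Of these, 2114 (11.9%) rose and 2418 (13.6%) fell in the Do-named group. By the rule of the study, at least a 3-fold difference and a raw p under 0.05, 1585 genes (8.94%) were called, of which 562 were higher and 1023 lower. The 3 libraries of one group lay wholly above those of the other for 8338 genes (47%). These counts depended on single libraries: 10883 genes passed without control 1 and 2196 without control 2. Without Do-named 1, 2 or 3 the test called 1831, 1958 and 1768 genes. The counts in the gene lists below moved with them, and their range over the fits that leave out each library in turn is given beside each list, as the numbers that rose and that fell. Over all genes tested the median log2 fold change was -0.06, and fold changes below are on the log2 scale, Do-named over control. Each list count below is to be read against the shares of all genes, 11.9% that rose and 13.6% that fell.

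**Figure D3:**
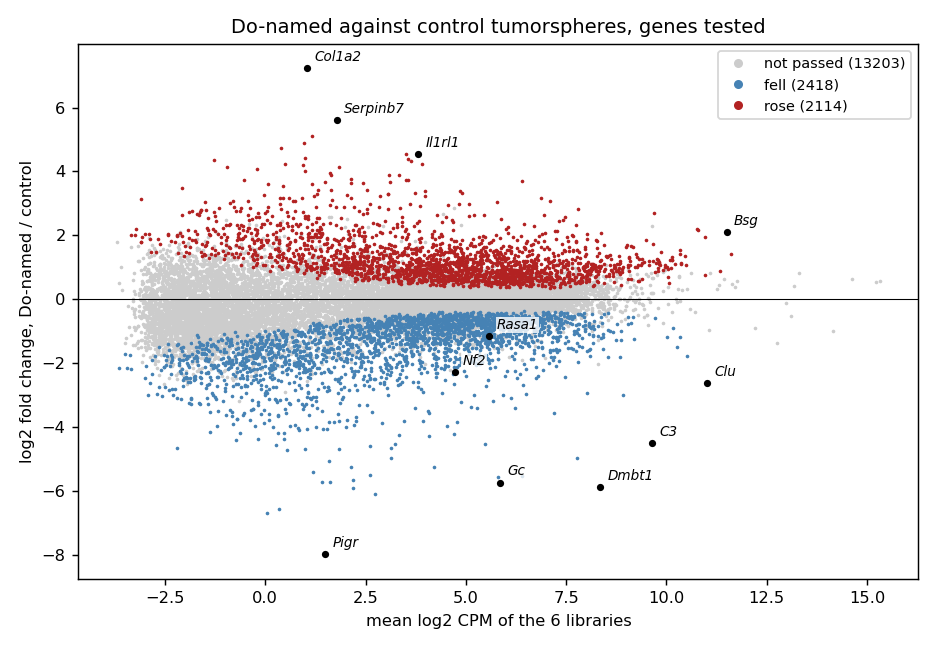
Mean log2 CPM of the 6 libraries (x axis) against the log2 fold change of Do-named over control (y axis) for each of the 17735 genes tested. Red points are the 2114 genes that rose and blue points the 2418 that fell. The falls reach farther than the rises, down to -7.98 for Pigr.

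The genes that rose most were at a few CPM or less in every control. Serpinb7, an epidermal protease inhibitor of the serpin family, had 0.293, 0.55 and 0.668 CPM in control 1, 2 and 3 and 25.9, 23.4 and 23.3 CPM in Do-named 1, 2 and 3. Its log2 fold change was 5.62 ± 0.32 SE, adjusted p = 0.00016. This was the largest rise among passing genes without overlap and with more than 3 counts in every library. Rgcc, a regulator of the cell cycle and of complement responses, had 0.109, 0.454 and 0.766 CPM in control 1, 2 and 3 and 15.5, 13.7 and 14.2 CPM in Do-named 1, 2 and 3 (5.09 ± 0.60 SE, adjusted p = 0.0018). Gng2, a gamma subunit of heterotrimeric G proteins, was at 0.152, 0.261 and 0.373 CPM in the controls and 7.35, 6.69 and 6.44 CPM in the Do-named libraries (4.74 ± 0.35 SE, adjusted p = 0.00036). Both went from under 1 CPM in each control to several CPM or more in each Do-named library. Il1rl1, the receptor for the alarmin IL-33, was at 1.46, 4.03 and 3.67 CPM in the controls and 72.1, 69.6 and 70.7 CPM in the Do-named libraries (4.54 ± 0.39 SE, adjusted p = 0.00061). Its ligand Il33, an alarmin that epithelial cells store in the nucleus, was at 71.3, 98.2 and 82.8 CPM in the controls and 607, 583 and 582 CPM in the Do-named libraries (2.81 ± 0.16 SE, adjusted p = 0.0002), so ligand and receptor rose in the same libraries. Fgfbp1, a carrier that releases fibroblast growth factors from the matrix, was at 2.62, 2.5 and 2.63 CPM in the controls and 58.9, 50.1 and 52.3 CPM in the Do-named libraries (4.38 ± 0.14 SE, adjusted p = 4.7e-05). Cldn6, a tight-junction claudin best known from embryonic epithelia, was at 2.55, 3.27 and 2.52 CPM in the controls and 55.2, 53.7 and 57.1 CPM in the Do-named libraries (4.31 ± 0.17 SE, adjusted p = 4.9e-05). Ripor2, an inhibitor of RhoA, was at 3.77, 3.41 and 3.14 CPM in the controls and 64.9, 64.3 and 64.5 CPM in the Do-named libraries (4.23 ± 0.14 SE, adjusted p = 4.7e-05). These last 3 genes hardly varied among the controls, control 1 included. Stbd1, a glycogen-binding protein, rose by 4.55. Sprr2e, a cornified-envelope protein, rose by 4.43, and Ly6f, Cstdc2 and Klra4 rose by 4.22, 4.22 and 4.88. Sprr2e, Ly6f, Cstdc2 and Klra4 belong to families of close copies in which the counting may have split reads, so their values are uncertain.

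The genes that fell most held several secreted proteins known from mucosal defence or blood plasma. Pigr, which carries polymeric immunoglobulin across the epithelium, had 9.05, 76.1 and 76.2 CPM in control 1, 2 and 3 and 0.191, 0.295 and 0.143 CPM in Do-named 1, 2 and 3 and fell by 7.98 on the log2 scale (SE 0.97, adjusted p = 0.0021). Dmbt1, a scavenger-receptor glycoprotein of mucus, went from 845, 4036 and 3420.0 CPM in the controls to 45.3, 49.4 and 46.5 CPM (-5.88 ± 0.62 SE, adjusted p = 0.0013). In both genes control 1 was the lowest control and still lay far above every Do-named library. Groups without overlap were a condition for naming these genes. Gc, the vitamin D-binding protein of plasma, was at 543, 419 and 326 CPM in the controls and 8.18, 7.98 and 7.96 CPM in the Do-named libraries (-5.74 ± 0.24 SE, adjusted p = 5.2e-05). Fgb, the fibrinogen beta chain, was at 53.9, 64.1 and 48.7 CPM in the controls and 0.648, 0.996 and 0.808 CPM in the Do-named libraries (-6.08 ± 0.23 SE, adjusted p = 4.9e-05), and its neighbour Fga, the alpha chain, at 10.7, 11 and 8.57 CPM in the controls and 0.102, 0.111 and 0.0782 CPM in the Do-named libraries (-6.67 ± 0.26 SE, adjusted p = 4.9e-05). Hp, the hemoglobin-binding haptoglobin, was at 761, 589 and 396 CPM in the controls and 12.6, 10.8 and 14.3 CPM in the Do-named libraries (-5.53 ± 0.30 SE, adjusted p = 0.00014), and Saa3, a serum amyloid A of the acute phase, at 462, 372 and 321 CPM in the controls and 8.95, 7.57 and 7.69 CPM in the Do-named libraries (-5.58 ± 0.21 SE, adjusted p = 4.9e-05). These plasma-type transcripts were thus present in every control, at up to 761 CPM for Hp, and at no more than 14.3 CPM, the level of Hp in Do-named 3, in the Do-named ones. Olfm4, a secreted glycoprotein used as a stem-cell marker of the intestine, was at 9.96, 12.8 and 16.8 CPM in the controls and 0.254, 0.111 and 0.0521 CPM in the Do-named libraries (-6.55 ± 0.52 SE, adjusted p = 0.00046). Agt, the precursor of angiotensin, fell by 5.71, the mucus protein Fcgbp by 5.91 and the matrix protein Igfbp5, which binds insulin-like growth factors, by 5.72. Mmp7, an epithelial matrix metalloprotease, was at 12.5, 46.5 and 46.5 CPM in the controls and 0.915, 0.443 and 0.756 CPM in the Do-named libraries (-5.64 ± 0.61 SE, adjusted p = 0.0014).

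**Figure D4:**
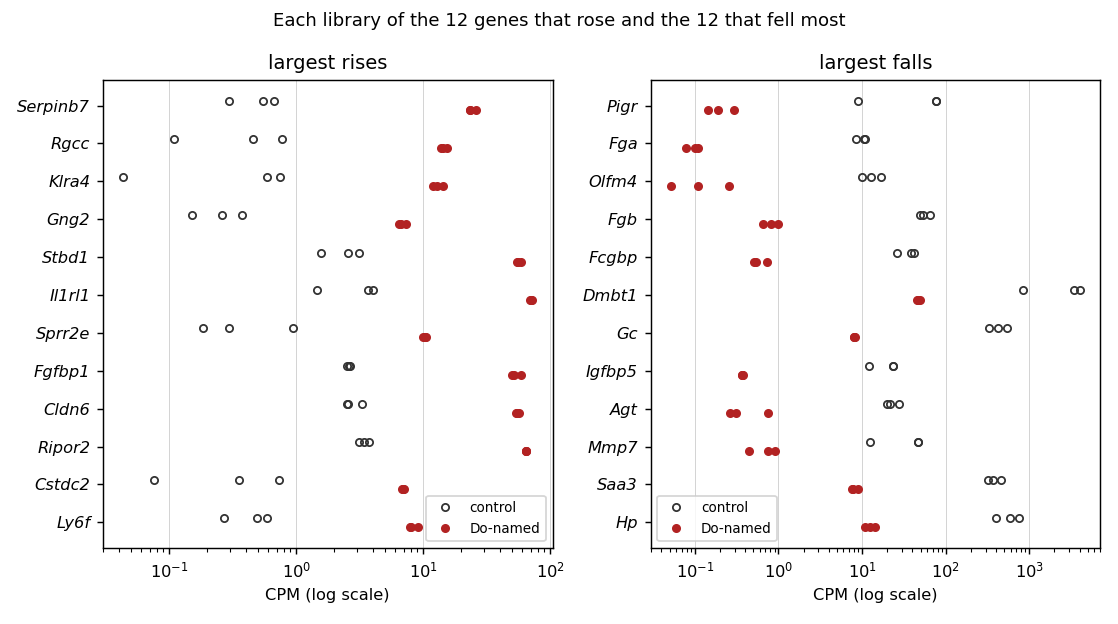
CPM (log axis) in each library of the 12 genes with the largest rise (left) and the 12 with the largest fall (right), controls as open and Do-named as filled points. The groups are apart for each of the 24 genes because the choice of these genes required it. Control 1 is the lowest control for Pigr (9.05 CPM) and Dmbt1 (845 CPM).

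The promoters of 4 of these genes are printed because each holds the AP-1 element, the site of the Fos and Jun factors that lie downstream of Ras and ERK. They are the 250 bases before and 50 after the start site in RefSeq (GRCm38.p6), 5′ to 3′ on the gene's strand. Both elements were searched as exact strings on both strands, and no hit of one overlapped a hit of the other in these promoters. Capitals mark TGACTCA or its reverse complement TGAGTCA, and in Fgb also CATTCC, the reverse complement of GGAATG, the core element of the TEAD factors that YAP and TAZ bind. Serpinb7 (chr1:107422439-107422738, plus strand) and Sprr2e (chr3:92351893-92352192, plus strand) rose, and Mmp7 (chr9:7691840-7692139, plus strand) and Fgb (chr3:83049814-83050113, minus strand) fell.
Serpinb7: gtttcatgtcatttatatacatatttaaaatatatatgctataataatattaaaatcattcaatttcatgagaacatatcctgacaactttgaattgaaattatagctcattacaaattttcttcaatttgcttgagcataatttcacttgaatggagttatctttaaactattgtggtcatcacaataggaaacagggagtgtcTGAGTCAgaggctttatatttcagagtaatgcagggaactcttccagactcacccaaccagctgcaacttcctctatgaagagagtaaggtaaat
Sprr2e: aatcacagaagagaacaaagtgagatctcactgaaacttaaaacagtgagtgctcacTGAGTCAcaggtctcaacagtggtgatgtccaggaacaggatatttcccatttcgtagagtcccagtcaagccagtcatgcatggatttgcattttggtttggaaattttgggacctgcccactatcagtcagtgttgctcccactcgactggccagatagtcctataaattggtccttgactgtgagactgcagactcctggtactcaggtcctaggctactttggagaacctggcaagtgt
Mmp7: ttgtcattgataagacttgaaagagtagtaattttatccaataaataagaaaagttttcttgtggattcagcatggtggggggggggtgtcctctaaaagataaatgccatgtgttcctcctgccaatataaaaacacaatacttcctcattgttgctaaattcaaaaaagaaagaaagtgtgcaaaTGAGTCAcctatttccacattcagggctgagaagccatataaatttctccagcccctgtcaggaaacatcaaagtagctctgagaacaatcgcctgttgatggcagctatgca
Fgb: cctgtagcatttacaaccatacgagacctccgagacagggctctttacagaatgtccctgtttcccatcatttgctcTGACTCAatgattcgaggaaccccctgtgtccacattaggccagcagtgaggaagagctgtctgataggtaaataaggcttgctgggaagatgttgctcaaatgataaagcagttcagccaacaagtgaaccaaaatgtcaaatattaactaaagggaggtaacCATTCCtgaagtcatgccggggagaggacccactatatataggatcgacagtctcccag
The AP-1 element lay 45 bases before the start site of Serpinb7 and 193 before that of Sprr2e, 63 before that of Mmp7 and 173 before that of Fgb. Of the 12554 tested genes with a promoter in the table, 5.12% held it, against 5.95% of all 27025 genes of the table. Of the 1501 that rose, 6.86% held it, and of the 1805 that fell, 6.15%. Among genes called by the 3-fold rule, the share was 12.1% of the 380 that rose (46 genes) and 7.43% of the 673 that fell (50 genes). The TEAD element was in 15.1% of the tested promoters, in 15.3% of those of genes that rose and in 17.6% of those of genes that fell. By the 3-fold rule it was in 17.1% of the 380 that rose (65 genes) and in 17.1% of the 673 that fell (115 genes). Of the genes with the largest rises, Klra4, Il1rl1 and Cldn6 held the TEAD element. Of those with the largest falls, Fga, Fgb and Igfbp5 did. For Mmp7, which has 2 promoters here, only the one with the AP-1 element is printed. A match is a string of letters and not a shown binding site, and these shares carry no test.

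The 8 largest gains in abundance included the glycolytic enzymes Pkm, Aldoa and Pgk1 and, of the secretory pathway, Ero1l and P4hb. Bsg, the chaperone of lactate transporters also called basigin, gained most, from 1964, 1297 and 1011 CPM to 6216, 5822 and 6313 CPM (2.1 ± 0.27 SE, adjusted p = 0.0025). Pkm, the pyruvate kinase that makes ATP in the last step of glycolysis, went from 2686, 1992 and 1205 to 5191, 5054 and 5311 CPM (1.40 ± 0.29 SE, adjusted p = 0.015). Pgk1, phosphoglycerate kinase, went from 1128, 759.9 and 579 to 3857, 3652 and 3834 CPM (2.20 ± 0.27 SE, adjusted p = 0.002). In all of these genes control 1 was the highest control and lay below every Do-named library. No overlap between the groups was a condition for the listed gains. Ero1l and P4hb, which form disulfide bonds in the endoplasmic reticulum, rose by 2.70 and 0.89. Vim, the mesenchymal filament vimentin, was at 944, 798 and 776 CPM in the controls and 3705, 3742 and 3804 CPM in the Do-named libraries (2.16 ± 0.16 SE, adjusted p = 0.00037). The list of glycolysis and the hypoxia response held 35 genes, all tested, and also counts the annexin Anxa13, which is not a glycolytic enzyme. Of the 35, 29 rose, against 11.9% of all genes, 1 fell and 5 did not pass. Their median log2 fold change was 1.40, against -0.06 over all genes. The neuronal enolase Eno2 was at 49, 54.4 and 45.4 CPM in the controls and 314, 304 and 311 CPM in the Do-named libraries (2.64 ± 0.13 SE, adjusted p = 0.00011). The mitophagy receptor Bnip3 rose by 2.04, Aldoa by 1.95 and the glucose transporter Slc2a3, at about 1 CPM even in the Do-named libraries, by 2.37. Pfkfb4, a regulatory enzyme of glycolysis, was the single member that fell (-1.32). With the length trend removed, 31 rose and 1 fell, with a median of 1.39. With one library removed at a time, the fits gave 20 to 32 as higher and 1 as lower. Pkm no longer passed when control 2 or any one Do-named library was left out (largest adjusted p = 0.07). With control 2, control 3 or any one Do-named library left out, P4hb did not pass (largest adjusted p = 0.12).

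Most genes of sterol and fatty acid synthesis rose in the same libraries. Of the 32 genes of the pathway, all tested, 22 rose, against 11.9% of all genes, none fell and 10 did not pass, and the median was 1.13. Called lower were 0 at an unadjusted p under 0.05 in edgeR and 0 by DESeq2. Over the fits without one library, 17 to 26 rose and 0 fell. Insig1, which retains the sterol sensor in the endoplasmic reticulum, was at 103, 52.8 and 36.4 CPM in the controls and 276, 261 and 272 CPM in the Do-named libraries (2.07 ± 0.36 SE, adjusted p = 0.0078). Fdps, an enzyme of isoprenoid synthesis, and the mevalonate enzyme Mvd rose by 1.96 and 1.96. The desaturase Scd1 was at 31.3, 70.4 and 74.9 CPM in the controls and 233, 248 and 212 CPM in the Do-named libraries (1.97 ± 0.32 SE, adjusted p = 0.0061). Control 1 was the lowest control for Scd1 and the highest for Insig1, and both groups stayed apart. The median was 1.24 with the length trend removed, when 23 genes rose and none fell. Fdps no longer passed when control 2 was left out (largest adjusted p = 0.051).

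Cytosolic ribosomal protein genes were higher too. These are short transcripts, and their values moved when the length trend was removed. Of 47 tested, 37 rose and none fell, with a median of 1.07. Without control 2, 3 of them rose, and without control 1 all 47 did. Called lower were 0 at an unadjusted p under 0.05 in edgeR and 0 by DESeq2. Rpl22 had 323, 216 and 174 CPM in control 1, 2 and 3 and 631, 585 and 621 CPM in Do-named 1, 2 and 3 (1.36 ± 0.24 SE, adjusted p = 0.0074). With the length trend removed 37 still rose, while the median was 0.67. The histone genes, 6 of 13 of which rose (3 without control 2 and 12 without control 1), went from a median of 0.82 to 0.31 with the trend removed, when 5 rose. The part of the length trend in these groups was not tested beyond this fit.

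Cell cycle genes were raised in part. Of 38 genes of S phase and mitosis, 17 rose, none fell and 21 did not pass, with a median of 0.55. DESeq2 called 0 lower, and edgeR at an unadjusted p under 0.05 called 0. With each library left out in turn, 9 to 30 rose and 0 to 1 fell, against 21 and 0 with the length trend removed. Rrm2, the subunit of ribonucleotide reductase that limits DNA precursors, was at 30.1, 30.9 and 36.6 CPM in the controls and 89.8, 94.7 and 91.8 CPM in the Do-named libraries (1.5 ± 0.13 SE, adjusted p = 0.00064), and the mitotic cyclin Ccnb2 rose by 1.42 and the kinase Aurkb by 1.25. Birc5, survivin, went from 13.4, 12.8 and 10.5 to 19.4, 20.8 and 21.6 CPM (0.75 ± 0.15 SE, adjusted p = 0.012). The proliferation marker Mki67 overlapped between the groups, with 77.1, 118 and 110.2 CPM in control 1, 2 and 3 and 106, 118 and 99.7 CPM in Do-named 1, 2 and 3. Among 16 regulators of G1, 6 rose and none fell (3 to 11 and 0 to 2 without one library, and 8 and 0 with the length trend removed). Called lower were 1 at an unadjusted p under 0.05 in edgeR and 1 by DESeq2. The 6 that rose included Ccnd1, cyclin D1, at 118, 145 and 126 CPM in the controls and 365, 380.2 and 379 CPM in the Do-named libraries (1.53 ± 0.13 SE, adjusted p = 0.00064), and the inhibitors of cyclin-dependent kinases Cdkn1c (2.35), Cdkn2d (1.64), Cdkn2a (1.17) and Cdkn2b (1.14). Activators and inhibitors of the G1 step thus rose in the same libraries. With Do-named 2 or Do-named 3 left out, Birc5 did not pass (largest adjusted p = 0.068). Cdkn2a and Cdkn2b no longer passed when control 2 or any one Do-named library was left out (largest adjusted p = 0.086 and 0.13).

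Targets of YAP and TAZ moved both ways. Of 22 tested, 11 rose, 4 fell and 7 did not pass, with a median of 0.63. Leaving out one library at a time gave 7 to 13 as higher and 2 to 5 as lower, against 14 and 2 with the length trend removed. Igfbp3, a binding protein of insulin-like growth factors, was at 18.2, 55.6 and 51 CPM in the controls and 382, 366 and 375 CPM in the Do-named libraries (3.17 ± 0.41 SE, adjusted p = 0.0026). Ankrd1, a nuclear ankyrin-repeat protein, was at 99.1, 107 and 90.5 CPM in the controls and 413, 387 and 410.2 CPM in the Do-named libraries (2.03 ± 0.13 SE, adjusted p = 0.00026), and Amotl2, an angiomotin that binds YAP, at 30.01, 49.1 and 38.3 CPM in the controls and 193, 199 and 206 CPM in the Do-named libraries (2.35 ± 0.20 SE, adjusted p = 0.00057). Ankrd1 varied little among the controls, while Igfbp3 was lowest in control 1. Ccn1, the matricellular protein CYR61, was at 17.1, 58.6 and 53.8 CPM in the controls and 155, 158 and 155 CPM in the Do-named libraries (1.85 ± 0.42 SE, adjusted p = 0.02). Its relative Ccn2, CTGF, was at 160.5, 357 and 357 CPM in the controls and 451, 464 and 466 CPM in the Do-named libraries and did not pass (0.66 ± 0.30 SE, adjusted p = 0.14). Fjx1, Arhgef17, Nuak2 and Crim1 fell, by 1.86, 0.86, 0.85 and 0.38. Among 22 genes of the Hippo pathway itself, Nf2 left out because its level chose the group, 6 rose and 1 fell (4 to 9 and 1 to 7 without one library, and 7 and 1 with the length trend removed). Of these pathway genes 31.8% passed, against 25.6% of all genes. The feedback kinase Lats2 rose by 0.81 and its partner Sav1 by 0.68, and the angiomotin Amot was the member that fell (-1.17). Ccn1 no longer passed when any one Do-named library was left out (largest adjusted p = 0.078). With Do-named 1 left out, Nuak2 did not pass (largest adjusted p = 0.052). Crim1 and Sav1 no longer passed when control 2 or any one Do-named library was left out (largest adjusted p = 0.15 and 0.07).

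Output genes of ERK mostly rose. Of 22 tested, 12 rose, 3 fell and 7 did not pass, and the median was 0.94. Over the fits without one library, 9 to 14 rose and 2 to 4 fell, against 13 and 3 with the length trend removed. Areg, amphiregulin, a ligand of the EGF receptor, was at 3.65, 4.36 and 3.46 CPM in the controls and 28.3, 26.2 and 27.9 CPM in the Do-named libraries (2.85 ± 0.15 SE, adjusted p = 0.00014). Fosl1, an AP-1 subunit, was at 0.728, 3.37 and 2.99 CPM in the controls and 9.76, 12 and 9.84 CPM in the Do-named libraries (2.17 ± 0.52 SE, adjusted p = 0.023), with control 1 the lowest. The ERK phosphatase Dusp6 went from 112, 125 and 109 to 209, 190.3 and 196 CPM (0.78 ± 0.12 SE, adjusted p = 0.0052). The 3 that fell were Il1rn, the antagonist of the interleukin 1 receptor, the apoptosis-linked Phlda1, and Ptgs2, the cyclooxygenase COX-2, at -1.63, -1.51 and -1.31. Among 20 RasGAPs and other regulators of Ras, Rasa1 left out for the same reason, 2 rose, 3 fell and 15 did not pass (0 to 4 and 1 to 11 without one library, and 4 and 1 with the length trend removed). At 25%, the share of these regulators that passed was near the 25.6% of all genes. Rasal1, a Ras GTPase-activating protein, fell, with 71.5, 82.2 and 70.8 CPM in control 1, 2 and 3 and 4.04, 4.23 and 3.27 CPM in Do-named 1, 2 and 3 (-4.28 ± 0.17 SE, adjusted p = 4.9e-05). The feedback inhibitors Spry2 and Spry1 rose by 0.60 and 0.46. Myc was at 12.8, 37 and 53 CPM in the controls and 73.9, 84.5 and 75.3 CPM in the Do-named libraries and did not pass (1.19 ± 0.45 SE, adjusted p = 0.095), although the groups did not overlap. Fosl1, Spry1 and Spry2 no longer passed when control 2 or any one Do-named library was left out (largest adjusted p = 0.092, 0.18 and 0.098). With control 2, control 3 or any one Do-named library left out, Phlda1 did not pass (largest adjusted p = 0.16).

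Mucosal defence had the lowest median of the 35 gene lists. Of 18 genes tested, 11 fell, 1 rose and 6 did not pass, and the median was -2.26. Macrophage markers moved beside this list and the cytokines. The 4 of 6 that were tested summed to 226 to 374 CPM in the controls and 94.7 to 105 CPM in the Do-named libraries. Cd14, a coreceptor for bacterial lipopolysaccharide, made up most of the sum and fell, from 368, 262 and 216 to 73.5, 70.8 and 80.2 CPM, whereas the lysosomal Cd68 rose, from 5.65, 8.23 and 7.66 to 19.9, 22 and 22.8 CPM. The receptor Csf1r did not pass, and Ptprc, the pan-leukocyte marker CD45, was at most 0.577 CPM in any library. Adgre1 and Lyz2 were absent from the deposited genes, which leave out every gene with a 0 in any library. The spheres were grown from the S1 line, and whether any of this signal came from macrophages was not tested. The mucosal list holds Pigr, Dmbt1, Saa3 and Hp, which are described above. Lcn2, the siderophore-binding lipocalin, was at 1499, 1097 and 1086 CPM in the controls and 38.4, 39.98 and 38.6 CPM in the Do-named libraries (-4.98 ± 0.20 SE, adjusted p = 5.1e-05). C3, the central complement protein, was at 4603, 3656 and 3154 CPM in the controls and 163, 182 and 163 CPM in the Do-named libraries (-4.49 ± 0.22 SE, adjusted p = 9.7e-05), and Cfb, complement factor B, fell by 3.18. The largest losses in abundance also held Clu, the secreted chaperone clusterin, which went from 5339, 5692 and 4381 to 801, 829.9 and 879 CPM (-2.62 ± 0.18 SE, adjusted p = 0.0003), and Trf, transferrin, which went from 1256, 1579 and 1293 to 176, 170.0 and 173 CPM (-2.99 ± 0.16 SE, adjusted p = 0.00014). Wfdc2, a secreted protease inhibitor, was the member that rose (0.81). Wfdc2 no longer passed when control 2 or any one Do-named library was left out (largest adjusted p = 0.078). With each library left out in turn, 0 to 2 rose and 10 to 12 fell, against 0 and 12 with the length trend removed.

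Cytokines and their receptors split as well. Of 39 tested, 7 rose, 17 fell and 15 did not pass, with a median of -0.52. Leaving out one library at a time gave 5 to 11 as higher and 10 to 21 as lower, against 6 and 18 with the length trend removed. Beside Il33 and Il1rl1, the rises included Il6 (2.07), at 0.532, 0.275 and 0.472 CPM in the controls and 1.74, 1.54 and 2.1 CPM in the Do-named libraries, and Il11 (1.75). Tnf, tumour necrosis factor, was at 8.8, 7.26 and 5.7 CPM in the controls and 0.826, 1.17 and 1.25 CPM in the Do-named libraries (-2.74 ± 0.27 SE, adjusted p = 0.00096). The chemokine Ccl20 was at 89.3, 34.8 and 26.4 CPM in the controls and 14.8, 13.3 and 12.9 CPM in the Do-named libraries (-1.88 ± 0.44 SE, adjusted p = 0.022), and Tnfsf10, the death ligand TRAIL, fell by 3.75. Cxcl5, a chemokine for neutrophils, went from 2973, 1429.8 and 1644 to 1021, 798 and 839 CPM (-1.19 ± 0.30 SE, adjusted p = 0.028). In the list of interferon response and antigen presentation, 6 of 41 rose, 6 fell and 29 did not pass (1 to 14 and 2 to 14 without one library, and 6 and 6 with the length trend removed), near the shares among all genes, with a median of 0.06. With any one Do-named library left out, Ccl20 and Cxcl5 did not pass (largest adjusted p = 0.085 and 0.098). Il11 no longer passed when control 2 or any one Do-named library was left out (largest adjusted p = 0.14).

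Genes of epithelial identity changed unevenly. Of 30 junction and identity genes, 11 fell, 2 rose and 17 did not pass, with a median of -0.42. Leaving out one library at a time gave 1 to 5 as higher and 7 to 16 as lower, against 3 and 12 with the length trend removed. Cdh1, E-cadherin, of which S1 carries an engineered allele, was at 383, 488 and 541 CPM in the controls and 149, 177 and 151 CPM in the Do-named libraries (-1.56 ± 0.17 SE, adjusted p = 0.0015). Epcam, an epithelial adhesion molecule, was at 64.2, 68.7 and 61.5 CPM in the controls and 22.1, 22.8 and 22 CPM in the Do-named libraries (-1.54 ± 0.12 SE, adjusted p = 0.00041), and Tjp3, a scaffold of tight junctions, at 76.5, 82 and 64.5 CPM in the controls and 13.7, 13.9 and 14.5 CPM in the Do-named libraries (-2.41 ± 0.14 SE, adjusted p = 0.00021). The groups were apart for these genes and the controls were close together. The keratins Krt8, Krt18 and Krt19 did not pass (adjusted p = 0.13, 0.056 and 0.052), whereas Krt7 went from 67.4, 84.8 and 54.1 to 375, 375 and 388 CPM (2.46 ± 0.19 SE, adjusted p = 0.00041). Of 28 keratins, desmosome and cornified-envelope genes, 6 rose, 3 fell and 19 did not pass (4 to 12 and 1 to 10 without one library, and 7 and 2 with the length trend removed). In this list 32.1% passed, against 25.6% of all genes. Ivl, involucrin, a scaffold of the cornified envelope, fell by 2.67. Of 11 Serpinb genes, 6 rose and none fell (3 to 8 and 0 without one library, and 6 and 0 with the length trend removed), with a median of 1.31. DESeq2 called 0 lower, and edgeR at an unadjusted p under 0.05 called 0. Serpinb11, Serpinb7 and Serpinb2 are neighbours on chromosome 1 and were all called by the 3-fold rule. Serpinb2, an inhibitor of plasminogen activators, was at 0.217, 2.1 and 2.28 CPM in the controls and 20.5, 17.4 and 18.9 CPM in the Do-named libraries (3.65 ± 0.73 SE, adjusted p = 0.013), lowest in control 1. On chromosome 3, Sprr2e, Sprr2h and Sprr1b rose while Sprr2a1, Sprr2a2 and Sprr2a3 fell by that rule, in a family whose copies share reads. With control 2, Do-named 1 or Do-named 3 left out, Serpinb2 did not pass (largest adjusted p = 0.056).

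Markers of stomach and gut shifted in both directions. Of 24 tested, 4 rose, 7 fell and 13 did not pass. Leaving out one library at a time gave 2 to 4 as higher and 5 to 10 as lower, against 3 and 8 with the length trend removed. Muc5ac, the surface mucin of the stomach, was at 3.99, 7.06 and 7.33 CPM in the controls and 0.458, 0.32 and 0.404 CPM in the Do-named libraries (-3.95 ± 0.33 SE, adjusted p = 0.00057). Cdx2, the intestinal transcription factor, was at 20.1, 15.4 and 12.6 CPM in the controls and 50.3, 51.5 and 57 CPM in the Do-named libraries (1.72 ± 0.19 SE, adjusted p = 0.0016), and Cdh17, an intestinal cadherin, at 17.8, 34.3 and 30.2 CPM in the controls and 115, 109.6 and 108 CPM in the Do-named libraries (2.02 ± 0.25 SE, adjusted p = 0.0021). Hnf4a, a transcription factor of gut and liver epithelium, went from 145, 106 and 99.4 to 65, 69.2 and 62.6 CPM (-0.83 ± 0.17 SE, adjusted p = 0.014). Lgr5, the stem-cell receptor for R-spondins, was at 16.6, 20.4 and 28.5 CPM in the controls and 7.45, 8.96 and 7.37 CPM in the Do-named libraries (-1.46 ± 0.23 SE, adjusted p = 0.0049). Of 17 mucins and their glycosyltransferases 4 fell (0 to 4 and 2 to 11 without one library, and 4 and 6 with the length trend removed), among them the membrane mucins Muc1 (-2.14) and Muc13 (-1.98), and none rose. The share of this mucin list that passed, 23.5%, was near the 25.6% of all genes. DESeq2 called 1 higher, and edgeR at an unadjusted p under 0.05 called 4. Hnf4a no longer passed when Do-named 1 or Do-named 3 was left out (largest adjusted p = 0.058). With control 2 or any one Do-named library left out, Muc13 did not pass (largest adjusted p = 0.092).

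Wnt genes were mixed. Of 29 ligands, receptors and antagonists, 6 rose, 5 fell and 18 did not pass (4 to 10 and 2 to 9 without one library, and 8 and 4 with the length trend removed). The ligands Wnt9a and Wnt7b rose by 2.39 and 1.10, while the receptor Ror1 fell (-2.44), with 21, 27.9 and 31.7 CPM in the controls and 5.91, 4.7 and 4.24 CPM in the Do-named libraries. Wnt5a was at 0.152, 1.79 and 2.95 CPM in the controls and 9.89, 9.98 and 9.03 CPM in the Do-named libraries, higher in each Do-named library, and missed the threshold (2.59 ± 0.82 SE, adjusted p = 0.057). Of 18 targets of beta-catenin, 4 rose, 6 fell and 8 did not pass (3 to 5 and 2 to 9 without one library, and 4 and 4 with the length trend removed), and their median of -0.63 turned to 0.10 without control 3 and was -0.31 with the length trend removed. Aqp5, a water channel, was at 2.2, 3.33 and 1.83 CPM in the controls and 32.8, 28.4 and 32.2 CPM in the Do-named libraries (3.66 ± 0.25 SE, adjusted p = 0.00029). Axin2, the negative-feedback scaffold of the pathway, was at 15.1, 23.9 and 22.8 CPM in the controls and 8.08, 8.8 and 8.73 CPM in the Do-named libraries (-1.27 ± 0.20 SE, adjusted p = 0.0054), and Cd44, a hyaluronan receptor, at 268, 512 and 659 CPM in the controls and 163, 180.1 and 136 CPM in the Do-named libraries (-1.59 ± 0.32 SE, adjusted p = 0.013). Ccnd1 and Birc5 are on this list too. Aqp5 and Axin2, both listed as targets, thus moved in opposite directions. Cd44 no longer passed when control 2 or any one Do-named library was left out (largest adjusted p = 0.071).

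Growth factor genes showed a few large changes. Of 27 genes of FGF, PDGF and IGF signaling, 9 rose and 5 fell (4 to 12 and 4 to 9 without one library, and 11 and 5 with the length trend removed). Fgf21, a hormone induced by nutrient and organelle stress, was at 0.13, 0.0275 and 0.118 CPM in the controls and 2.1, 1.81 and 1.84 CPM in the Do-named libraries (4.36 ± 0.52 SE, adjusted p = 0.002), and the receptors Fgfr2 and Fgfr3 fell by 1.86 and 1.94. Igfbp4 was at 226, 178 and 141 CPM in the controls and 249, 255 and 278 CPM in the Do-named libraries and did not pass (0.52 ± 0.19 SE, adjusted p = 0.082). In the BMP and TGF-beta list, 8 of 35 rose and 6 fell (6 to 14 and 3 to 11 without one library, and 11 and 4 with the length trend removed). Bmp4, a ligand, was at 24.9, 27.7 and 23.2 CPM in the controls and 68, 69.7 and 70.1 CPM in the Do-named libraries (1.45 ± 0.13 SE, adjusted p = 0.00063), and the secreted antagonists Fst and Nog rose by 2.08 and 1.41. Of 20 Notch genes, 8 fell, 1 rose and 11 did not pass, with the receptor Notch1 and its ligand Jag1 at -1.36 and -1.58. Jag1 was at 244, 274 and 269 CPM in the controls and 87.2, 91.8 and 83.5 CPM in the Do-named libraries, with the groups well apart. Without control 2, 2 of the Notch genes fell and none rose, and without control 1, 9 fell and 7 rose. With the length trend removed, 7 fell and 1 rose. Of 16 EGF ligands and receptors, 4 rose and 3 fell (3 to 6 and 2 to 6 without one library, and 6 and 3 with the length trend removed), the receptor Erbb2 among the latter (-0.73). In the list of ephrins, semaphorins and guidance genes, 6 of 40 rose and 12 fell (3 to 15 and 8 to 16 without one library, and 10 and 11 with the length trend removed), among them Sema3a at 1.95 and Sema4g at -3.10. With control 2 or any one Do-named library left out, Nog and Erbb2 did not pass (largest adjusted p = 0.19 and 0.071).

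Few members of the BCL2 family passed, 11.8% against 25.6% of all genes. Of 17 tested, 2 fell, none rose and 15 did not pass (0 to 3 and 1 to 5 without one library, and 1 and 3 with the length trend removed), with a median of -0.25, or -0.07 with that trend removed. Called higher were 1 at an unadjusted p under 0.05 in edgeR and 0 by DESeq2. Bmf, a pro-apoptotic BH3-only protein, was at 222, 140.0 and 118 CPM in the controls and 58.8, 57.1 and 57.8 CPM in the Do-named libraries (-1.47 ± 0.24 SE, adjusted p = 0.0059). Bik, another BH3-only protein, was under 1 CPM in every library (-1.37 ± 0.41 SE, adjusted p = 0.049). The anti-apoptotic Bcl2 was at 28.5, 28.5 and 29.9 CPM in the controls and 22.9, 26.8 and 23.4 CPM in the Do-named libraries (-0.25 ± 0.13 SE, adjusted p = 0.18) and Bcl2l1, which encodes BCL-XL, at 46.2, 58.8 and 58.3 CPM in the controls and 37, 43.4 and 43.4 CPM in the Do-named libraries (-0.40 ± 0.15 SE, adjusted p = 0.091). In both the Do-named libraries lay below every control, by little, and Bcl2 went to 0.072 with the length trend removed. Mcl1, a further survival factor, was at 274, 258 and 253 CPM in the controls and 238, 233 and 239 CPM in the Do-named libraries and did not pass (-0.14 ± 0.12 SE, adjusted p = 0.38). With control 2, control 3 or any one Do-named library left out, Bik did not pass (largest adjusted p = 0.18).

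Several mesenchymal and matrix genes were high in the Do-named libraries, and control 1 differed from the other controls in them. Col1a2, a chain of type I collagen, was at 0.0217, 0.165 and 0.491 CPM in the controls and 29.9, 30.9 and 29.6 CPM in the Do-named libraries (7.23 ± 0.74 SE, adjusted p = 0.0011). Col3a1, type III collagen, had 39.5, 819 and 613 CPM in control 1, 2 and 3 and 2305, 2410.0 and 2435 CPM in Do-named 1, 2 and 3 and did not pass (2.28 ± 0.89 SE, adjusted p = 0.099). Pdgfra, the PDGF receptor alpha, was at 0.228, 4.85 and 6.23 CPM in the controls and 36.8, 39.9 and 32.7 CPM in the Do-named libraries (3.29 ± 0.92 SE, adjusted p = 0.04), and Lox, which crosslinks collagen, at 2.81, 29.9 and 33.3 CPM in the controls and 143, 144 and 123 CPM in the Do-named libraries (2.64 ± 0.77 SE, adjusted p = 0.046). In each of these genes control 1 lay far under both other controls, and every Do-named library lay above every control. The 6 fibroblast markers that were tested summed to 75.5, 930.0 and 731 CPM in control 1, 2 and 3 and to 2506, 2640.0 and 2619 CPM in Do-named 1, 2 and 3. Col3a1, which did not pass, made up most of the sum in every library. Of these markers Col1a2 and Pdgfra rose and Dcn, the proteoglycan decorin, fell (-1.12). Col1a1, Col3a1 and Pdgfrb did not pass, and Lum and Thy1 were not tested. In bulk RNA more cells of a type and more RNA per cell cannot be told apart. Of 25 mesenchymal genes, 8 rose, 2 fell and 15 did not pass, with a median of 0.79, and without control 1, 16 rose and 6 fell, and without control 2, 3 rose and none fell. With the length trend removed, 13 rose and 1 fell. Pdgfra, Lox and Dcn no longer passed when control 2, control 3 or any one Do-named library was left out (largest adjusted p = 0.12, 0.13 and 0.14). Thbs1, the matricellular thrombospondin 1, was at 44, 92.9 and 86.5 CPM in the controls and 413, 438 and 396 CPM in the Do-named libraries (2.48 ± 0.29 SE, adjusted p = 0.0018). Of 23 collagens, 6 rose and 2 fell, so that 34.8% passed, against 25.6% of all genes. Leaving out one library at a time gave 2 to 10 as higher and 1 to 6 as lower. With the length trend removed, 11 rose and 1 fell. Of 24 laminins and integrins, 7 rose and 9 fell (3 to 9 and 5 to 12 without one library, and 8 and 6 with the length trend removed): the integrin chain Itga7 (2.56) and the laminin chain Lama3 (1.66) rose, while Lamb3, another chain of the epithelial laminin of basement membranes, fell (-1.44). Lama3 no longer passed when control 2, control 3 or any one Do-named library was left out (largest adjusted p = 0.13). With Do-named 1 left out, Lamb3 did not pass (largest adjusted p = 0.05).

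Of 34 proteases and their inhibitors, 12 rose and 8 fell (8 to 18 and 5 to 10 without one library, and 15 and 7 with the length trend removed). The stromelysins Mmp3 and Mmp10, which break down matrix, rose by 2.99 and 2.28, and Mmp3 was at 8.53, 10.9 and 11 CPM in the controls and 82.7, 79.8 and 79.8 CPM in the Do-named libraries. Timp3, an inhibitor of metalloproteases, and Plau, urokinase, rose by 2.21 and 2.14. Of 27 contractile and actin-binding genes, 4 rose and 3 fell (2 to 11 and 1 to 9 without one library, and 6 and 4 with the length trend removed), with Myl9, a regulatory myosin light chain, at 1.97, 2.1 and 1.22 CPM in the controls and 0.318, 0.258 and 0.248 CPM in the Do-named libraries (-2.68 ± 0.35 SE, adjusted p = 0.0026). The share of this contractile list that passed, 25.9%, was near the 25.6% of all genes. The 3 of 5 smooth muscle markers that were tested summed to 1.73, 5.86 and 5.58 CPM in the controls and 1.65, 1.27 and 1.86 CPM in the Do-named libraries, and their part in these changes was not tested.

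Among 30 genes of ATF4 and the unfolded protein response, 11 rose and 3 fell, with a median of 0.54. Leaving out one library at a time gave 6 to 23 as higher and 1 to 5 as lower, against 13 and 2 with the length trend removed. Trib3, a pseudokinase induced by ATF4, was at 9.64, 8.88 and 8.98 CPM in the controls and 45.1, 50.3 and 52.4 CPM in the Do-named libraries (2.43 ± 0.13 SE, adjusted p = 0.00014), and Ddit3, the stress factor CHOP, at 48.8, 18.7 and 12.5 CPM in the controls and 149.5, 148 and 163 CPM in the Do-named libraries (2.52 ± 0.48 SE, adjusted p = 0.011). The factor Xbp1 fell (-0.79). With control 2 left out, Ddit3 did not pass (largest adjusted p = 0.058). Of 37 xenobiotic, aldehyde and glutathione enzymes, 6 rose and 10 fell (4 to 10 and 6 to 12 without one library, and 5 and 11 with the length trend removed). The glutathione transferase Gsta3 was at 139.6, 80.7 and 62.7 CPM in the controls and 6.29, 5.2 and 6.77 CPM in the Do-named libraries (-3.95 ± 0.33 SE, adjusted p = 0.00057), and Aldh1a1, which makes retinoic acid, fell by 2.30, while the heme oxygenase Hmox1 rose by 2.08. Runs of neighbouring detoxifying genes fell together by the 3-fold rule: Ugt2b34, Ugt2b35, Ugt2b36 and Ugt2b5 on chromosome 5, and Ces2a, Ces2c and Ces2g on chromosome 8, both families of similar copies.

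Of 13 genes encoded in mitochondrial DNA, 3 fell and none rose, with a median of -0.78, and without control 2 or control 3 none passed. The share that passed with every library in the fit, 23.1%, was near the 25.6% of all genes. Without control 1, 8 fell. The median was -0.30 without control 3 and -1.14 with the length trend removed, when 6 fell. At an unadjusted p under 0.05, edgeR called 0 of them higher, and DESeq2 0 after adjustment. CYTB, cytochrome b, had 75.2, 231 and 456 CPM in control 1, 2 and 3 and 53.5, 65 and 55.6 CPM in Do-named 1, 2 and 3 (-2.13 ± 0.57 SE, adjusted p = 0.035), so the controls differed more among themselves than control 1 did from the Do-named libraries. With control 2, control 3 or any one Do-named library left out, CYTB did not pass (largest adjusted p = 0.13). Mitochondrial mRNA as a whole made up 1.12% to 1.45% of the counts in the controls and 0.882% to 0.991% in the Do-named group. Of 16 nuclear and structural RNAs, 6 rose and 1 fell (3 to 11 and 0 to 5 without one library, and 6 and 1 with the length trend removed), H19, an imprinted non-coding RNA, most (2.84). By chromosome, the median log2 fold change lay between -0.14 and 0.11 on every chromosome other than the mitochondrial one, with the highest on chromosome 13.

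**Figure D5:**
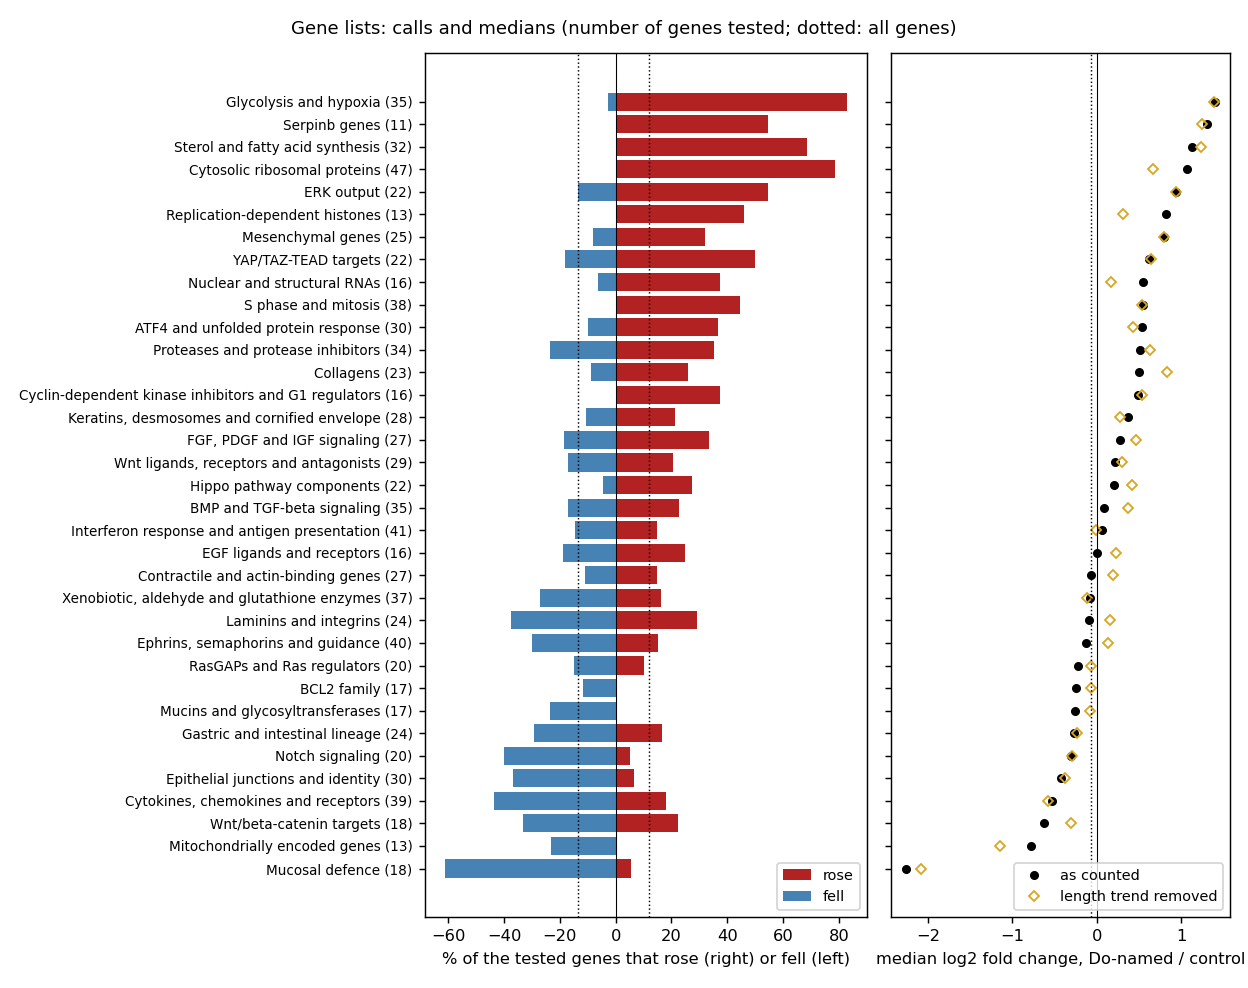
For each of 35 gene lists (number of genes tested in parentheses), the percentage of genes that rose or fell (left) and the median log2 fold change of Do-named over control as counted and with the length trend removed (right); dotted lines mark all genes tested. Glycolysis and hypoxia has the highest median (1.40) and mucosal defence the lowest (-2.26), while the medians of ribosomal proteins and histones shrink once the length trend is removed.

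The Do-named libraries were next set against the other Nf2-low group, the labelled Nf2 KO. Of 17550 genes, 4527 (25.8%) passed, 2099 higher and 2428 lower in the Do-named group, but only 234 (1.33%) differed at least 3-fold with a raw p under 0.05. A fit over all 12 libraries called 661. Of the 2114 genes that rose against the controls, 433 were higher and 540 lower than in the labelled Nf2 KO. Of the 2361 that fell and were tested here, 416 were higher and 367 lower. The rest did not pass in this comparison. Values in this and the next comparison are CPM on the scale of all 12 libraries. The levels of Nf2 and Rasa1 in this group are those given above, without a test. The MAGE-family gene Tro stood lowest, with 0.743, 0.781 and 0.477 CPM in Do-named 1, 2 and 3 and 10.5, 9.24 and 10.4 CPM in the labelled Nf2 KO (-3.92 ± 0.16 SE, adjusted p = 4.3e-07). Lower as well were Serpinf1 and Dpt, which were named after their values were seen. Matrix genes were not counted as a list in this comparison. Serpinf1, the secreted factor PEDF, had 10.8, 10.6 and 10.2 CPM in Do-named 1, 2 and 3 and 56.5, 54.9 and 59.2 CPM in the labelled Nf2 KO (-2.45 ± 0.07 SE, adjusted p = 3.4e-08), and the matrix protein Dpt had 12.7, 9.92 and 11 CPM in Do-named 1, 2 and 3 and 52.3, 57.7 and 63.4 CPM (-2.38 ± 0.10 SE, adjusted p = 5.2e-07). Col1a2 and Col3a1 were lower too (-2.20 and -1.49, adjusted p = 2.5e-08 and 5.8e-07). In level the Do-named spheres thus stood between the controls and the labelled Nf2 KO for these collagens, but Col3a1 did not pass against the controls. Higher in the Do-named group were Cdh11, a mesenchymal cadherin, with 6.49, 5.72 and 5.58 CPM in Do-named 1, 2 and 3 and 0.496, 0.501 and 0.494 CPM (3.56 ± 0.14 SE, adjusted p = 2.7e-07), and the membrane protein Ms4a8a, with 1.4, 1.54 and 1.25 CPM in Do-named 1, 2 and 3 and 0.0709, 0.057 and 0.126 CPM (4.002 ± 0.30 SE, adjusted p = 1.5e-05). Ms4a8a stood at 8.95, 11.7 and 8.43 CPM in the controls, above both groups. Ccn1 was lower in the Do-named group (-1.38, adjusted p = 2.3e-07), with 389.5, 392 and 412 CPM in the labelled Nf2 KO.

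Against the labelled double KO, whose tables are named for Rasa1 KO, 8306 of 17582 genes (47.2%) passed, 4118 higher and 4188 lower in the Do-named group, and 1013 (5.76%) differed by the 3-fold rule. Of the 2114 genes that rose against the controls, 1744 were higher and 18 lower than in the labelled double KO. Of the 2400 that fell and were tested here, 6 were higher and 2068 lower. The plasma-type transcripts were among the largest differences. Hp had 12.5, 10.7 and 14.1 CPM in Do-named 1, 2 and 3 and 869.7, 616 and 570.5 CPM in the labelled double KO (-5.77 ± 0.19 SE, adjusted p = 1e-06), Gc had 8.11, 7.92 and 7.87 CPM in Do-named 1, 2 and 3 and 427, 322 and 329 CPM (-5.48 ± 0.13 SE, adjusted p = 4.4e-07), and Fgb had 0.642, 0.988 and 0.799 CPM in Do-named 1, 2 and 3 and 43.8, 43.2 and 45 CPM (-5.74 ± 0.15 SE, adjusted p = 4.4e-07). Hp and Gc in the labelled double KO overlapped the controls. Fgb lay under every control there, with the controls at 53.7, 63.1 and 47.3 CPM on this scale. Fga, another of these transcripts, was at 4.3, 4.29 and 5.27 CPM in the labelled double KO and 10.6, 10.8 and 8.32 CPM in the controls. Col1a2 had 29.6, 30.7 and 29.2 CPM in Do-named 1, 2 and 3 and 0.0672, 0.293 and 0.189 CPM in the labelled double KO (7.39 ± 0.30 SE, adjusted p = 2.9e-06), Pdgfra had 36.4, 39.6 and 32.3 CPM in Do-named 1, 2 and 3 and 0.347, 0.905 and 1.03 CPM (5.59 ± 0.32 SE, adjusted p = 1.3e-05), and Gng2 had 7.28, 6.64 and 6.37 CPM in Do-named 1, 2 and 3 and 0.0672, 0.0932 and 0.151 CPM (6.03 ± 0.27 SE, adjusted p = 4.2e-06). Serpinb7 and Il1rl1 were higher in the Do-named group by 3.92 and 4.11 (adjusted p = 9.9e-07 and 8.2e-06). Birc5, which passed against the controls, did not differ detectably here (-0.00 ± 0.10 (SE), adjusted p = 1). The 3 comparisons share libraries and are not independent of each other.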

How the data were processed

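RNA-seq of S1 tumorspheres was deposited with, for each gene and library, raw read counts, FPKM, TPM and a log2 value. Per the study's methods and the submitters' processing notes, the libraries were stranded and rRNA-depleted, and the authors used Trimmomatic 0.38 for trimming, HISAT2 2.1.0 and SAMtools 1.9 for alignment (build mm10) and StringTie 2.1.3b for counting. Genes with a 0 in any library are absent from the tables. The deposited counts were the main values. The deposited FPKM served for an alternative, and the deposited TPM and log2 columns, the latter normalized by the authors, were not used.

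Groups came from the sample labels. Genes were kept by edgeR's filterByExpr, scaled by TMM and tested with edgeR 4.0.16 (quasi-likelihood, R 4.3.3) with Benjamini-Hochberg adjustment, 3 libraries against 3, on 6 libraries only. Depth was 43818139 to 95340850 counts per library. On data simulated for this comparison (17838 genes tested), 85 of 99 genes changed 4-fold and 41 of 100 changed 2-fold were found, with 2 false calls. The simulated libraries held no control that stood apart and no length trend, and the changed genes were drawn from those above a minimum mean count. These numbers therefore do not give the error rate in the real libraries. Gene lists and members were chosen with earlier results of these data known, so counts over a list carry no test. Genes were named by a fixed rule: Nf2, Rasa1, genes that the study names for S1, the 12 largest rises and falls with more than 3 counts in each library, the 8 largest gains and losses of CPM, and up to 4 members of each list that passed, together with members that define a list. The rises, falls, gains and losses came only from genes with an adjusted p under 0.05 and no overlap between the groups. The rises and falls also needed a mean of at least 1 CPM in the higher group. Cdh11, Tro, Serpinf1, Dpt, Ms4a8a, the neighbouring Serpinb, Sprr, Ugt2b and Ces2 genes and some further list members were named after their values were seen. Alternatives were DESeq2 1.42.0, RLE, other filters, all 12 libraries, replicate blocks, limma 3.58.1 on log2(FPKM + 1) and log2(FPKM + 0.1), leaving out each library and, added after the data were seen, offsets that remove each library's lowess trend over transcript length (length from counts and FPKM). Promoters and positions came from RefSeq GRCm38.p6. Some list members are not reported here.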

Additional observations from a re-analysis of the deposited data

How the results depend on the processing

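Against the 4532 genes that passed between Do-named and control, 7569 passed with all 12 libraries in the fit, and the fits that left out one library gave 1768 to 10883. DESeq2 called 6512, RLE scaling 4682, no filter 4504, a mean of at least 1 CPM 5045, removal of the length trend 4993, and limma 5012 on log2(FPKM + 1) and 5054 on log2(FPKM + 0.1). By the 3-fold rule, where 1585 were called, limma gave 376 on log2(FPKM + 1) and 999 on log2(FPKM + 0.1), a scale that shrinks the folds of low genes, and the fits without one library gave 1456 to 2291. Without control 3, 46.2% of the genes called by that rule were higher, against 35.5% with all 6 libraries. With all 12 libraries in the fit, 661 genes passed against the labelled Nf2 KO in place of 4527, and 5464 against the labelled double KO in place of 8306.

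With the replicate number as a block, 3179 genes passed by the numbers of the sample titles and 4425 by those of the table names. The numbers share no stated culture or day: the deviations of same-numbered control and Do-named libraries correlated at 0.056, 0.17 and -0.050 by title, so they were not taken as pairs.

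Of 162 named genes that passed, Nf2 and Rasa1 left out, 119 passed in every alternative in which they were tested and none changed direction. Bcl2, which did not pass, went from -0.25 to 0.072 with the length trend removed. Leaving out control 1, which stood apart from the other controls, gave the largest number of passing genes between Do-named and control, 10883.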
